A study of Homo sapiens with 12 samples.

Results

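A sense oligo of LINE1 (sO-L1) was compared with a non-targeting antisense oligo (ASO-Ctr) in H9, an established line of human embryonic stem cells, across all expressed genes. The comparison takes the 4 sO-L1 and the 4 ASO-Ctr libraries, 8 of the 12 in the series, and matches them by replicate number. Of 53717 genes in the count table, 17264 passed the filter on low counts, applied to all 12 libraries, and were tested. The other 4 libraries received ASO-L1, the oligo antisense to LINE1. All 3 groups were cultured in RSeT medium, which is meant to hold embryonic stem cells in a naive-type state. The cells received a fluorescein-labelled oligo at 25 nM by lipofection. Trans-ISRIB at 0.7 uM, emricasan at 5 uM and Y-27632 at 10 uM were present in every group and were removed after 24 h. Fluorescent cells were sorted at 48 h, and poly(A) RNA was sequenced from 80 to 130 ng of total RNA. Because every group received an oligo, a difference made by sO-L1 and an opposite one made by ASO-Ctr cannot be told apart. H9 is 1 cell line, and nothing in the labels states that replicates came from separate cultures. The p-values therefore measure only the spread between these samples, which may be technical.

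LINE1 is a family of retrotransposons whose RNA codes for proteins that copy it back into the genome. Its copies, mostly truncated, lie in either orientation within introns and between genes. An antisense oligo pairs with the RNA it targets and, depending on its chemistry, can recruit RNase H to cut it or block it sterically. A sense oligo has the letters of the RNA itself, so it does not pair with that RNA, and such oligos commonly serve as controls for the chemistry and the delivery. The series asks about LINE1, the Polycomb complex PRC2, the nucleolus and the genes of the 8-cell embryo. The count table has 0 rows for LINE1, so the level of LINE1 RNA was not analysed here. The sequences of the oligos are not printed here.

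ASO-Ctr libraries held 22.8 to 41.5 M reads counted in genes and sO-L1 libraries 31.1 to 55.1 M. A count of 0 allows up to 3 reads, which correspond to 0.0716 to 0.128 and 0.0534 to 0.0982 CPM (counts scaled to the library size, with TMM). Such floors cover counting error only. Between 24636 and 26603 genes had a read in each of the 8 libraries. Core pluripotency markers were expressed, which goes with the label of embryonic stem cells but does not identify the H9 line itself. Over the 8 libraries the medians were 1166 CPM for POU5F1, 144 CPM for NANOG, 439 CPM for SOX2 and 1739 CPM for L1TD1. Markers of the naive state were mixed. DPPA3, KLF4 and TFCP2L1 had medians of 32.9, 21.9 and 20.4 CPM. The medians of DPPA5, SUSD2 and DNMT3L were lower, at 6.28, 4.10 and 1.078 CPM. KLF17, a defining naive factor, had a median of 0.0876 CPM. Primed-state markers were also present, with medians of 55.8 CPM for OTX2 and 81.2 CPM for SFRP2. The medians of THY1, DUSP6 and ZIC2 were 52.8, 12.9 and 7.48 CPM.

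Few genes differed between sO-L1 and ASO-Ctr in the fit of 12 libraries. With edgeR's quasi-likelihood test and a block for the replicate number, 50 genes passed an adjusted p of 0.05, which is 0.29% of those tested. Of these, 38 were lower with sO-L1 (0.22%) and 12 were higher (0.0695%). All 50 had the same direction in each of the 4 replicate numbers. In 41 of the 50 the sO-L1 and ASO-Ctr libraries did not overlap, against 3.23% of all tested genes. Both counts use the values that gave the calls, and a test with a replicate block favours genes with the same direction within each number. Neither count adds support to the calls. The called changes were modest, with a median size of 0.49 on the log2 scale and a range of 0.21 to 1.51. Only 19 of the 50 exceeded 1.5-fold, 14 of them lower and 5 higher, and 4 exceeded 2-fold.

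Across all tested genes the median log2 fold change was 0.0008 and its median size was 0.0683, against 0.229 for ASO-L1 compared with the same ASO-Ctr libraries. ASO-L1 against ASO-Ctr called 44.3% of the genes, 21.2% higher and 23.1% lower. For 75.3% of genes the 95% interval of the sO-L1 fold change lay within 1.5-fold in either direction, and for 90.3% within 2-fold.

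**Figure D1:**
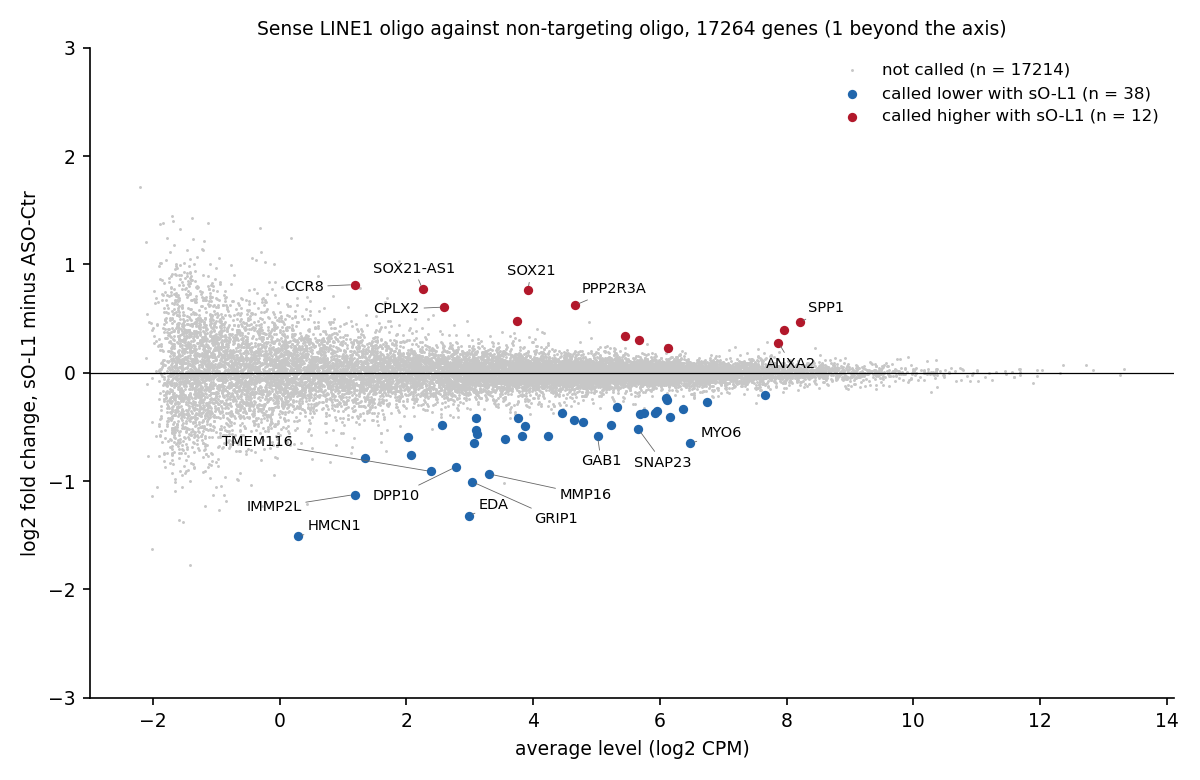
Log2 fold change of sO-L1 against ASO-Ctr (vertical axis) by average level in log2 CPM (horizontal axis) for 17264 genes, each point 1 gene. The 38 genes called lower (blue) and the 12 called higher (red) lie at the edge of a narrow grey cloud, and 1 gene that was not called lies beyond the vertical axis.

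The number of calls differed widely between fits. The fit above uses all 12 libraries. When the 8 libraries of the comparison were fitted alone, 640 of 16708 genes were called (3.83%), 263 higher (1.57%) and 377 lower (2.26%). All 50 genes were among the 640 with the same sign, as 7.81% of them. The biological coefficient of variation was 0.0634 with 12 libraries and 0.0356 with 8, the residual degrees of freedom were 6 and 3, and the prior degrees of freedom were 10.8 and 71.8. The cause of the difference in calls was not tested. The 50 genes are described below because they passed under both. Single replicate numbers also mattered: 241 genes were called without replicate 1, 10 without replicate 2, 10 without replicate 3 and 31 without replicate 4.

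The largest falls among genes at a usable level were in EDA, IMMP2L, GRIP1, MMP16 and TMEM116. EDA codes for ectodysplasin A, a ligand of the tumour necrosis factor family that patterns hair, teeth and sweat glands. It stood at 11.6, 12.7, 12.9 and 12.6 CPM in ASO-Ctr replicates 1 to 4 and at 4.3, 5.11, 5.12 and 5.47 CPM in sO-L1. The groups were far apart, and each set of 4 lay close together. EDA fell by 1.32 ± 0.10 (SE, n = 4 per group) on the log2 scale, 2.5-fold lower with a 95% interval of 2.16 to 2.88 and an adjusted p of 3.84e-06, the smallest of all genes.

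GRIP1, a PDZ scaffold protein that binds glutamate receptors, stood at 11.8, 12.3, 12 and 12.3 CPM in ASO-Ctr and at 7.16, 6.39, 5.26 and 5.34 CPM in sO-L1. Its highest sO-L1 library was still well below its lowest control. GRIP1 fell by 1.0 ± 0.10 on the log2 scale (edgeR, adjusted p = 5.63e-05). MMP16, a membrane-anchored matrix metalloproteinase, stood at 14.6, 15.2, 11.4 and 11.6 CPM in ASO-Ctr and at 8.05, 8.35, 6.44 and 4.91 CPM in sO-L1. Replicates 1 and 2 were above replicates 3 and 4 in both groups, and the fall appeared within every number. MMP16 fell by 0.93 ± 0.09 on the log2 scale (edgeR, adjusted p = 5.35e-05).

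IMMP2L, a subunit of the peptidase complex of the inner mitochondrial membrane, stood at 3.47, 3.65, 3.53 and 3.77 CPM in ASO-Ctr and at 1.89, 1.90, 1.21 and 1.51 CPM in sO-L1. It fell by 1.12 ± 0.20 on the log2 scale (edgeR, adjusted p = 0.0172). The IMMP2L call held in 2 of 12 fits that left out libraries and was lost without the block, at an edgeR adjusted p of 0.070. TMEM116, which codes for a transmembrane protein, stood at 6.29, 6.04, 5.26 and 5.16 CPM in ASO-Ctr and at 2.49, 3.63, 3.03 and 2.85 CPM in sO-L1. Neither gene had overlapping groups. TMEM116 fell by 0.91 ± 0.12 on the log2 scale (edgeR, adjusted p = 0.00137). The largest called fall of all was in HMCN1, the extracellular matrix protein hemicentin, which the naming rule left out for its low level. It dropped from 1.66 ± 0.0946 to 0.596 ± 0.195 CPM (SD, n = 4), a log2 change of -1.51 ± 0.27 (edgeR, adjusted p = 0.0172). The HMCN1 call held in 4 of the 12 fits that left out libraries, and was also lost without the block.

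Falls of 0.59 to 0.87 followed in genes of varied roles. DPP10, an auxiliary subunit of Kv4 potassium channels, dropped from 10.1 ± 0.923 to 5.57 ± 1.30 CPM, with a log2 change of -0.87. ARHGAP6, a GTPase-activating protein, dropped from 3.54 ± 0.491 to 2.06 ± 0.177 CPM, with a log2 change of -0.79. SH3GL3, the endocytic membrane-bending protein endophilin A3, dropped from 4.67 ± 0.429 to 2.78 ± 0.101 CPM, with a log2 change of -0.75. In each of these genes every sO-L1 library was below every ASO-Ctr library. TMEM132D, a neuronal transmembrane protein, changed by -0.65 on the log2 scale, BBS9, a subunit of the BBSome that moves cargo in cilia, by -0.61, and SAMD12, a protein with a sterile alpha motif domain, by -0.59. The adjusted p of these 6 genes ranged from 0.00323 for BBS9 to 0.0492 for SAMD12 (edgeR).

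Among genes with an average log2 CPM of 6 or more, 6 falls were named by the rule. MYO6, the myosin motor that walks towards the minus end of actin filaments, stood at 95.6, 117, 105 and 102 CPM in ASO-Ctr and at 62.3, 78.2, 62.4 and 64.7 CPM in sO-L1. Replicate 2 was the highest library in both groups, and the groups did not overlap. MYO6 fell by 0.65 ± 0.05 on the log2 scale (edgeR, adjusted p = 1.17e-05). TUSC3, a subunit of the oligosaccharyltransferase that glycosylates proteins, dropped from 82.3 ± 4.04 to 62.0 ± 3.81 CPM. TTL, the ligase that restores tyrosine to the end of alpha-tubulin, dropped from 84.5 ± 11.6 to 67.1 ± 8.5 CPM. Its lowest control library, replicate 1 at 67.5 CPM, lay below 2 sO-L1 libraries, so the TTL groups overlapped and the call rests on the matching by number. MCCC2, an enzyme of leucine breakdown, changed by -0.27 on the log2 scale, TEAD4, the partner of YAP on DNA, by -0.25, and EPS15, an adaptor of clathrin-mediated endocytosis, by -0.23. The adjusted p of TUSC3, TTL, MCCC2, TEAD4 and EPS15 ranged from 0.00323 to 0.0367 (edgeR).

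The other genes called lower were outside the naming rule, and those named here were chosen after their values were seen. GAB1, a docking protein of receptor tyrosine kinases, stood at 36.8, 39.7, 39.6 and 39.3 CPM in ASO-Ctr and at 26.4, 27.1, 23.3 and 26.9 CPM in sO-L1. SNAP23, a SNARE of fusion at the plasma membrane, stood at 53.4, 58.6, 62.1 and 64.3 CPM in ASO-Ctr and at 40.6, 41.7, 41.6 and 42.0 CPM in sO-L1. The sO-L1 libraries of SNAP23 lay close together, and neither gene had overlapping groups. GAB1 fell by 0.59 ± 0.06 and SNAP23 by 0.52 ± 0.05 on the log2 scale, with adjusted p of 0.000109 and 0.000102 (edgeR). RIMS2, an active-zone protein of vesicle release, fell by 0.58, and SBF2, a myotubularin-related protein that acts on Rab GTPases, by 0.58. The adjusted p of RIMS2 was 0.000387 and that of SBF2 was 0.000656 (edgeR).

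Smaller falls made up the rest. LAMA2, the alpha chain of laminin in muscle and nerve, changed by -0.56 on the log2 scale and DOCK3, a Rac exchange factor of neurons, by -0.52. GMDS, the first enzyme of GDP-fucose synthesis, changed by -0.49, SYN2, a synaptic vesicle protein, by -0.48, and NBAS, a factor of Golgi-to-endoplasmic-reticulum transport, by -0.48. XXYLT1, a xylosyltransferase that extends sugars on Notch, changed by -0.45, TSTD2 by -0.44, KLHL13, an adaptor of cullin ubiquitin ligases, by -0.42, and PRKCA, protein kinase C alpha, by -0.42. The changes were -0.38 in RAB8B, a Rab GTPase of exocytosis, and -0.37 in GPR98, a very large adhesion receptor, UACA, and FIG4, a phosphoinositide phosphatase. NEO1, the netrin and repulsive guidance receptor neogenin, changed by -0.35, and ZNF638, a zinc finger protein, by -0.21. Among these 15 genes the adjusted p ranged from 0.00132 to 0.0385 (edgeR), and the groups of LAMA2 and ZNF638 overlapped. Another gene called lower carries only a clone name and is counted but not named.

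**Figure D2:**
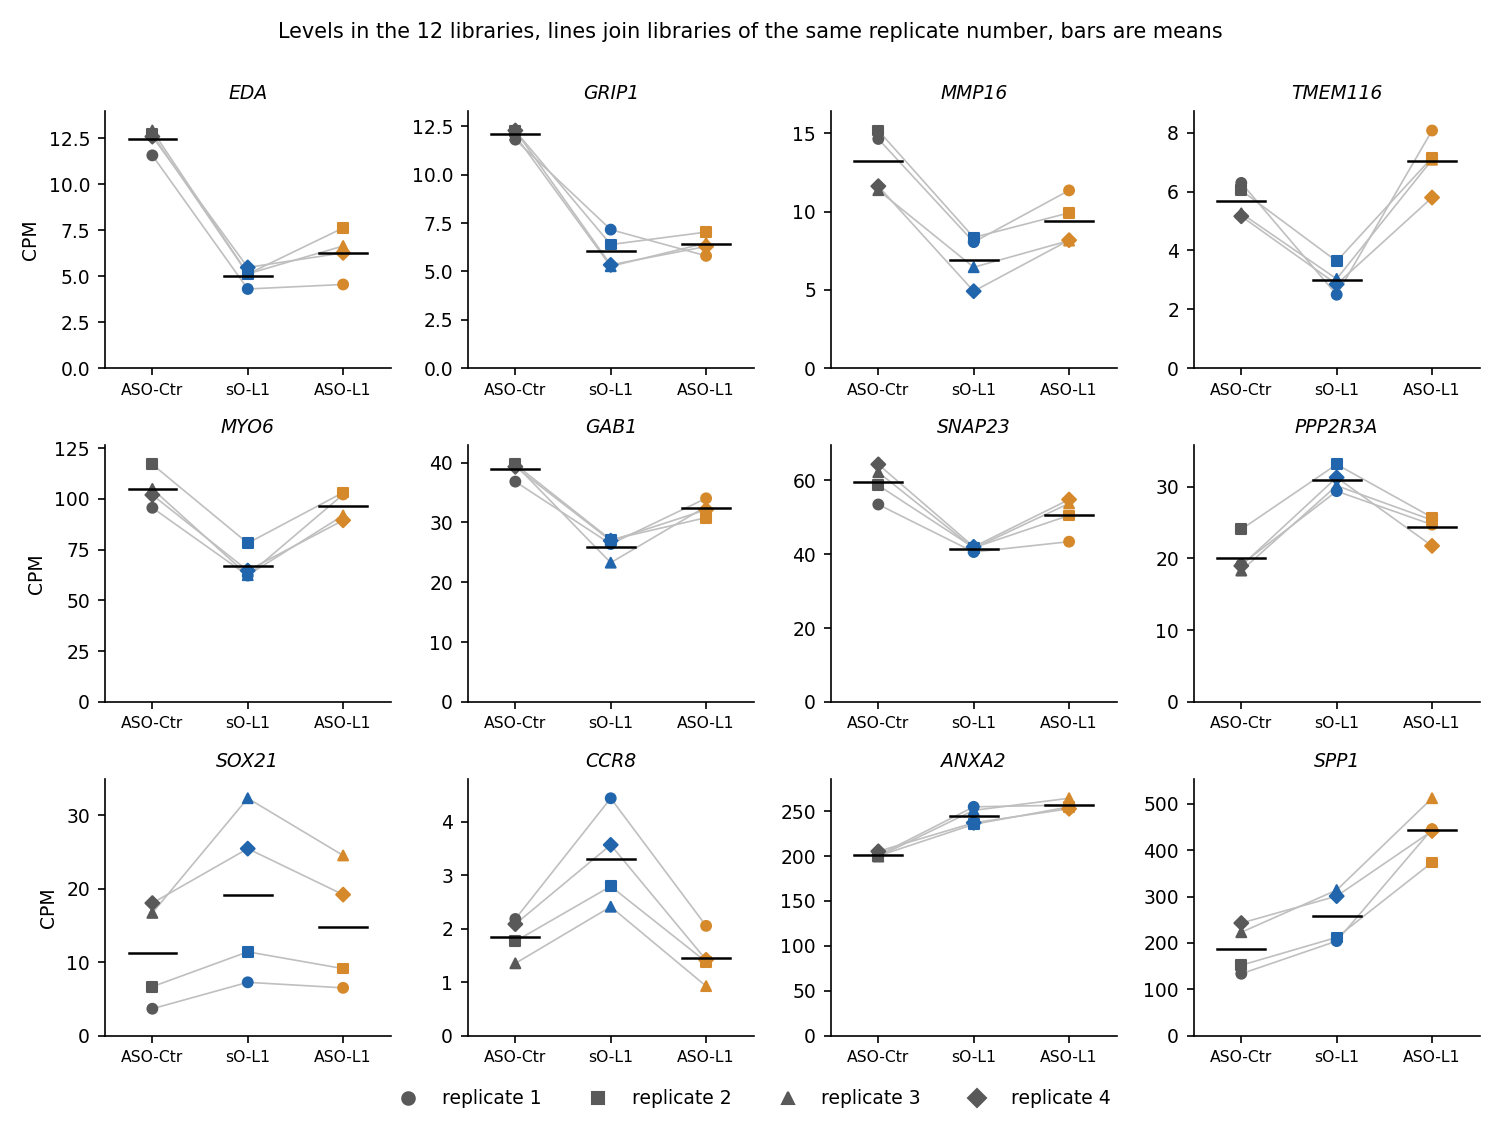
Levels in CPM (vertical axes, each from 0) of 12 called genes in the 12 libraries, by group, with lines joining libraries of the same replicate number and bars at the group means. The blue sO-L1 points lie below the grey ASO-Ctr points for EDA, GRIP1, MYO6, GAB1 and SNAP23, and above them for PPP2R3A, CCR8 and ANXA2, while SOX21 and SPP1 rise within each number although their groups overlap.

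The genes that rose included the neighbours SOX21 and SOX21-AS1. SOX21 is a repressor of the SOX B2 class that promotes differentiation, and SOX21-AS1 is a long non-coding RNA transcribed away from it. In RefSeq (GRCh38.p14) SOX21 starts at chr13:94712545 on the minus strand and SOX21-AS1 starts 171 bases away, on the plus strand. The promoter window of SOX21, from 250 bases before to 50 after its start, is shown because both genes moved. It covers chr13:94712496-94712795 on GRCh38.p14, minus strand, printed 5′ to 3′, with capitals for the 172 bases from the start of SOX21-AS1 to that of SOX21.
SOX21 promoter: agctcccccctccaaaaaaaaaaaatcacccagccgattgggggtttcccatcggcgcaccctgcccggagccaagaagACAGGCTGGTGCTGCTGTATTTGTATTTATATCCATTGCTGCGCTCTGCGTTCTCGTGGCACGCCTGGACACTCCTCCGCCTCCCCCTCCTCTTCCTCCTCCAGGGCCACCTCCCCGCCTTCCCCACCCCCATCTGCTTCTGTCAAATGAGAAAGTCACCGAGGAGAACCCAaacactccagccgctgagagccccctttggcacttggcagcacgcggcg
The window of SOX21-AS1 shares 270 of these 300 bases. CG occurs 15 times in the SOX21 window, against a median of 14 over 35116 promoter windows. The motif TATAAA was searched on both strands. It has 0 matches on the SOX21 strand and 1 on the SOX21-AS1 strand, where it lies 25 to 30 bases before the SOX21-AS1 start and reads TTTATA in the printed letters. Of all windows, 11.5% hold it on either strand. CCAAT has 1 match on either strand, and 34.6% of windows hold it.

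SOX21 stood at 3.68, 6.68, 16.7 and 18.1 CPM in ASO-Ctr replicates 1 to 4 and at 7.28, 11.4, 32.3 and 25.5 CPM in sO-L1. SOX21-AS1 stood at 1.24, 2.34, 4.09 and 5.10 CPM in ASO-Ctr and at 2.55, 3.60, 8.47 and 7.53 CPM in sO-L1. For both genes replicates 3 and 4 were the high libraries in either group, so the groups overlapped while every sO-L1 library exceeded the ASO-Ctr library of its number. The log2 fold changes were 0.77 ± 0.09 for SOX21 and 0.77 ± 0.13 for SOX21-AS1, with adjusted p of 0.000475 and 0.0164 (edgeR). Without the block neither was called, with an adjusted p of 1.0 for each. The sources used here do not give whether reads were counted by strand, so reads from any overlap between annotated neighbours cannot be told apart.

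CCR8, a chemokine receptor, showed the largest called rise. It stood at 2.18, 1.77, 1.35 and 2.09 CPM in ASO-Ctr and at 4.44, 2.79, 2.41 and 3.57 CPM in sO-L1. The lowest sO-L1 library was above the highest control by little. CCR8 rose by 0.81 ± 0.14 on the log2 scale (edgeR, adjusted p = 0.0124). The call held in 2 of 12 fits that left out libraries and was lost without the block, at an adjusted p of 0.609. PPP2R3A, a regulatory subunit of protein phosphatase 2A, stood at 19.1, 24.0, 18.3 and 19 CPM in ASO-Ctr and at 29.4, 33.1, 30.1 and 31.3 CPM in sO-L1. Its groups were clearly apart, with replicate 2 the highest in both. PPP2R3A rose by 0.62 ± 0.07 on the log2 scale (edgeR, adjusted p = 0.000167).

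CPLX2, the SNARE regulator complexin 2, rose from 5.62 ± 1.62 to 8.59 ± 2.13 CPM and PTPRN, a protein of dense-core vesicles, from 12.5 ± 5.81 to 17.2 ± 7.01 CPM. Their groups overlapped, and each gene was higher with sO-L1 within every number. SPP1, the secreted matrix protein osteopontin, stood at 134, 152, 223 and 243 CPM in ASO-Ctr and at 204, 212, 314 and 301 CPM in sO-L1. It was again higher in replicates 3 and 4 of both groups. SPP1 rose by 0.46 ± 0.09 on the log2 scale (edgeR, adjusted p = 0.0247). SERPINB9, the inhibitor of granzyme B, stood at 188, 178, 186 and 184 CPM in ASO-Ctr and at 252, 223, 250 and 243 CPM in sO-L1, with no overlap. ANXA2, a calcium-dependent membrane-binding protein, stood at 201, 200, 199 and 205 CPM in ASO-Ctr and at 255, 235, 251 and 237 CPM in sO-L1, also with no overlap. SERPINB9 rose by 0.39 and ANXA2 by 0.28 on the log2 scale, with adjusted p of 0.0465 and 0.00243 (edgeR). LPAR6, a receptor for lysophosphatidic acid, rose by 0.34, CACNA2D1, an auxiliary subunit of calcium channels, by 0.31, and EPB41L5, a FERM protein of epithelial organization, by 0.23. Their adjusted p were 0.0281, 0.0250 and 0.0367 (edgeR), and the LPAR6 groups overlapped. The calls held in 4, 2 and 1 of 12 fits that left out libraries and were lost without the block.

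The genes that fell were long. The distance from the start to the end of each gene was taken from GENCODE v29 (GRCh38), which matched 88.0% of the tested genes by symbol. It was known for 37 of the 38 genes called lower, whose median was 296 kb, and for all 12 called higher, whose median was 37.6 kb. The median of all tested genes was 30.8 kb. Of the genes called lower, 30 were at least 100 kb long, 18 at least 300 kb and 0 under 30 kb. DPP10 spans 1403 kb, IMMP2L 899 kb, TMEM132D 832 kb, RIMS2 755 kb and GRIP1 722 kb. Shorter genes among the falls were TSTD2 at 33.5 kb, SNAP23 at 54.1 kb and TMEM116 at 81.9 kb.

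By class of length, 12 of 250 genes over 500 kb were called lower, 4.80% of the class against 0.22% of all tested genes, and 0 were called higher. Between 300 and 500 kb 6 of 408 were called lower, between 100 and 300 kb 12 of 2358, and between 30 and 100 kb 7 of 4683. Of the 7492 genes under 30 kb 0 were called lower and 6 higher. With the 8 libraries alone the split by length was less sharp: 76 genes under 30 kb were called lower and 120 higher, and the median length was 122 kb for the 377 genes called lower and 31.7 kb for the 263 called higher. In that fit 37 of 243 genes over 500 kb were called lower and 3 higher, beside 2.26% and 1.57% of all genes. The shift was not limited to called genes. The median log2 fold change of genes over 500 kb was -0.07, with 68.4% of them negative, and in the 4 replicate numbers the median was -0.090, -0.114, -0.071 and -0.061. It was -0.03 between 300 and 500 kb, where the median was negative in each replicate number, and -0.01 between 100 and 300 kb. In that last class the medians of replicates 1 to 4 were 0.009, -0.044, -0.011 and -0.001. The shorter classes lay slightly above 0, with signs that differed between replicate numbers. Longer genes had lower counts here, with a median average log2 CPM of 1.82 over 500 kb and 4.85 between 30 and 100 kb. In the subset over 500 kb whose average log2 CPM was 1 or more, 155 genes, the median was -0.07 as well. With ASO-L1 against the same ASO-Ctr libraries the median over 500 kb was -0.56. Length was not separated from base composition or from the number of introns, whose part in the result was not tested.

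**Figure D3:**
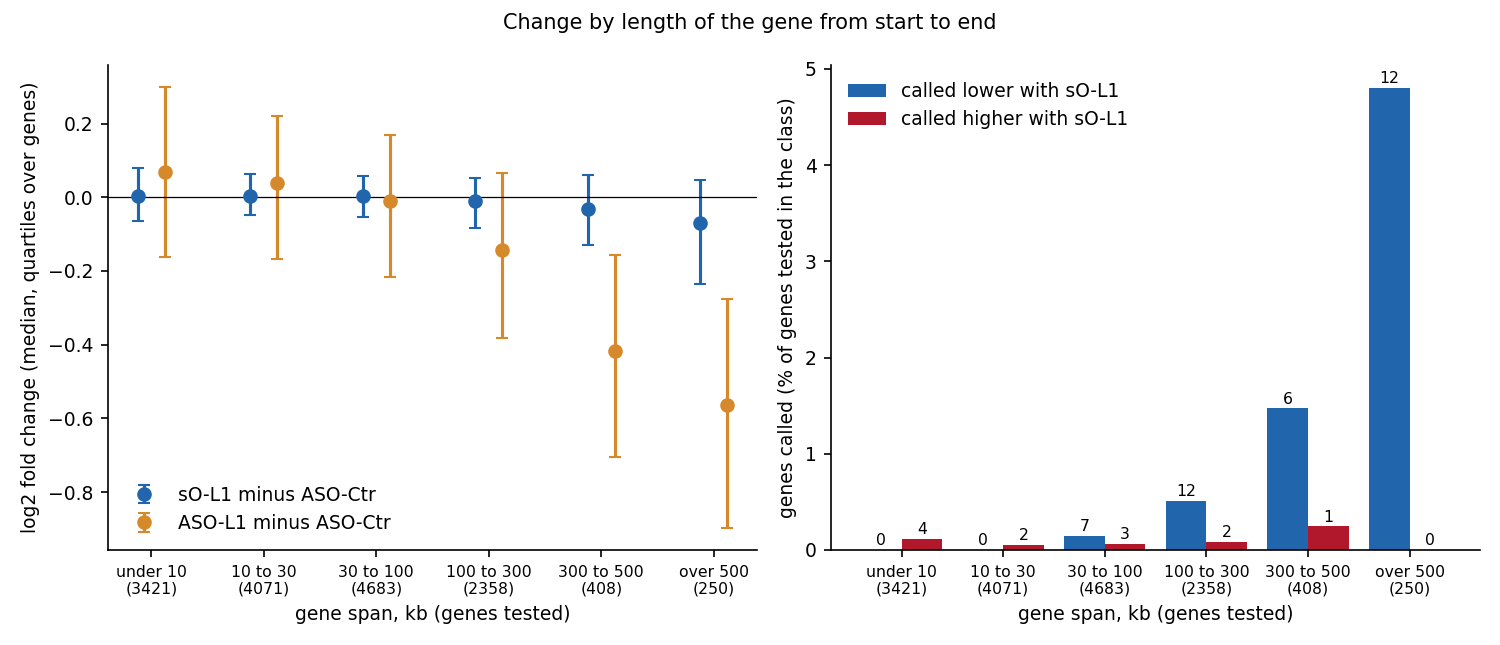
Left, median log2 fold change (vertical axis; bars are quartiles over genes) by gene length class in kb (horizontal axis, with the number of genes tested) for sO-L1 (blue) and ASO-L1 (orange) against the same ASO-Ctr libraries. Right, percent of each class called lower (blue) or higher (red) with sO-L1, with the gene counts above the bars, which reach 12 of 250 genes called lower over 500 kb.

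ASO-L1 values for the same genes are set beside these, with the caution that both comparisons share the ASO-Ctr libraries. EDA was at 6.26 ± 1.28 CPM with ASO-L1 and GRIP1 at 6.40 ± 0.507 CPM, with log2 changes from ASO-Ctr of -0.99 and -0.92. DPP10 and IMMP2L changed by -1.08 and -1.32. MYO6 by contrast was at 96.7 ± 7.02 CPM with ASO-L1 and SH3GL3 at 5.09 ± 0.753 CPM, with log2 changes of -0.12 and 0.11 that did not pass. TMEM116, TTL, TSTD2 and TEAD4 were higher with ASO-L1 than with ASO-Ctr, with log2 changes of 0.30, 0.18, 0.18 and 0.50.

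The difference between the LINE1 oligos was tested directly as ASO-L1 against sO-L1, a comparison that called 44% of all tested genes, 21.1% higher and 22.9% lower with ASO-L1. Of the 38 genes lower with sO-L1, 17 were higher with ASO-L1 than with sO-L1, 7 were lower and 14 did not pass. The largest such differences were in TMEM116 at 1.21, HMCN1 at 1.12, SH3GL3 at 0.87, TEAD4 at 0.76, TSTD2 at 0.62 and MYO6 at 0.53 on the log2 scale. EDA differed by 0.33 (edgeR, adjusted p = 0.016), and GRIP1 by 0.09 (adjusted p = 0.52). NBAS, NEO1, GPR98, DOCK3, RIMS2, LAMA2 and SAMD12 were lower still with ASO-L1, with log2 differences of -0.41 to -0.88. Of the 12 genes higher with sO-L1, 2 were higher with ASO-L1 than with sO-L1, 6 were lower and 4 did not pass. SPP1 and SERPINB9 were higher, by 0.81 and 0.38, and the log2 differences of CPLX2, CCR8 and PTPRN were -1.26, -1.19 and -0.71. These genes were chosen for their sO-L1 values, which enter this comparison too.

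Gene lists are read beside the shares over all tested genes, of which 0.29% were called, 7.14% had an unadjusted p under 0.05, 50.4% had a positive sign and 3.83% were called with the 8 libraries alone. At 0.29% a list of this size holds 0 or few called genes in any case. The 35 lists cover pluripotency, the 8-cell embryo, PRC2, the nucleolus, stress, metabolism, the cell cycle, transposon control and other cell types. Across them the called genes were SOX21 among 39 tested developmental regulators bound by PRC2, ANXA2 among 51 cytoskeletal and adhesion genes, and IMMP2L and DPP10 among 59 long neuronal and adhesion genes. The other 32 lists had 0 called genes. Of the long neuronal and adhesion genes 44 were lower and 15 higher in sign, 15 had an unadjusted p under 0.05, and the median log2 fold change was -0.07. In the 8 libraries fitted alone 10 of 57 were called lower, including FHIT and GPC6, which were picked after their values were seen, and 2 higher.

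Subunits of PRC2, nucleolar genes and pluripotency genes did not pass the test in the fit of 12 libraries. EZH2, EED and SUZ12, the core of PRC2, had log2 fold changes of -0.02, -0.08 and 0.02, and 0 of 15 PRC2 subunits was called. For 14 of those 15 the 95% interval lay within 1.5-fold. The other, C17orf96, had a log2 fold change of -0.65 that was not called, with an interval reaching beyond 2-fold. NCL, the nucleolar protein nucleolin, and TRIM28, the corepressor of transposons, had log2 fold changes of -0.06 and -0.07, and 0 of 82 nucleolar genes was called, with all 82 intervals within 1.5-fold. Among 30 core pluripotency genes 0 were called, and POU5F1, NANOG, SOX2 and L1TD1 had log2 fold changes of 0.03, -0.01, 0.04 and 0.04. At an unadjusted p under 0.05 there were 1, 8 and 3 genes in these lists, and with the 8 libraries alone 0, 6 and 1 were called, of 15, 82 and 30. Of 39 developmental regulators bound by PRC2, SOX21 was called higher, 28 had a positive sign and 9 had an unadjusted p under 0.05. For 17 of the 39 the 95% interval reached beyond 2-fold, and with the 8 libraries alone 2 of 30 were called higher. The 39 passed the filter over 12 libraries and the 30 the filter over 8, so some of the 39 were tested only because of ASO-L1. The median log2 fold change of the 39 with ASO-L1 against ASO-Ctr was 0.67. Of 26 naive-state genes 21 had a positive sign, 4 had an unadjusted p under 0.05 and 0 were called, and with the 8 libraries alone 2 were called higher. Of 30 primed-state genes 19 had a negative sign, 8 had an unadjusted p under 0.05 and 0 were called, and with the 8 libraries alone 2 were called higher and 5 lower. DPPA3, a maternal and naive-state factor, had a log2 fold change of 0.24 with an adjusted p of 0.192 (edgeR). It passed with the 8 libraries alone, at an adjusted p of 0.000362. It also passed with limma on the batch-corrected table, without a replicate block, at 0.030.

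Of 53 genes of the 8-cell embryo in the table, 41 lay under the filter, with 213 reads in all over the 8 libraries of the comparison. Of the 12 tested, 0 were called (2 at an unadjusted p under 0.05, and 1 called with the 8 libraries alone). ZSCAN4, an 8-cell marker, had 9 reads over the 12 libraries, LEUTX, a homeobox factor of the 8-cell embryo, had 0 reads and KLF17 had 52. CCR7, a chemokine receptor, lay near or under the floor of 3 reads in both groups, at 0 to 0.214 CPM with ASO-Ctr and 0.0655 to 0.176 CPM with sO-L1, against 3.88 to 18.0 CPM with ASO-L1.

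Stress genes were not called with sO-L1 in the fit of 12 libraries. DDIT3, a pro-apoptotic factor of the integrated stress response, stood at 4.97, 3.53, 3.46 and 4.35 CPM in ASO-Ctr, at 6.30, 4.61, 5.03 and 5.47 CPM in sO-L1 and at 15.8 to 41.2 CPM in ASO-L1. Every sO-L1 library was above the control of its number, and the log2 fold change of 0.38 ± 0.17 did not pass (edgeR, adjusted p = 0.653), but it did with the 8 libraries alone (adjusted p = 0.0154). CDKN1A, the p53 target that halts the cell cycle, stood at 10.6, 4.37, 4.16 and 4.41 CPM in ASO-Ctr, at 11.3, 5.16, 4.15 and 5.30 CPM in sO-L1 and at 15.8 to 48.8 CPM in ASO-L1. Replicate 1 was the high library in all 3 groups. ATF4, the main transcription factor of the integrated stress response, and RNASEH1, the nuclease that cuts RNA paired with DNA, had log2 fold changes of -0.03 and -0.01. None of 49 integrated stress response genes, 39 p53 targets, 56 interferon and nucleic acid sensing genes or 50 genes of RNase H, RNA decay and oligo handling was called. At an unadjusted p under 0.05 these lists held 6, 3, 5 and 4 genes, and with the 8 libraries alone 6, 2, 1 and 4 were called.

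**Figure D4:**
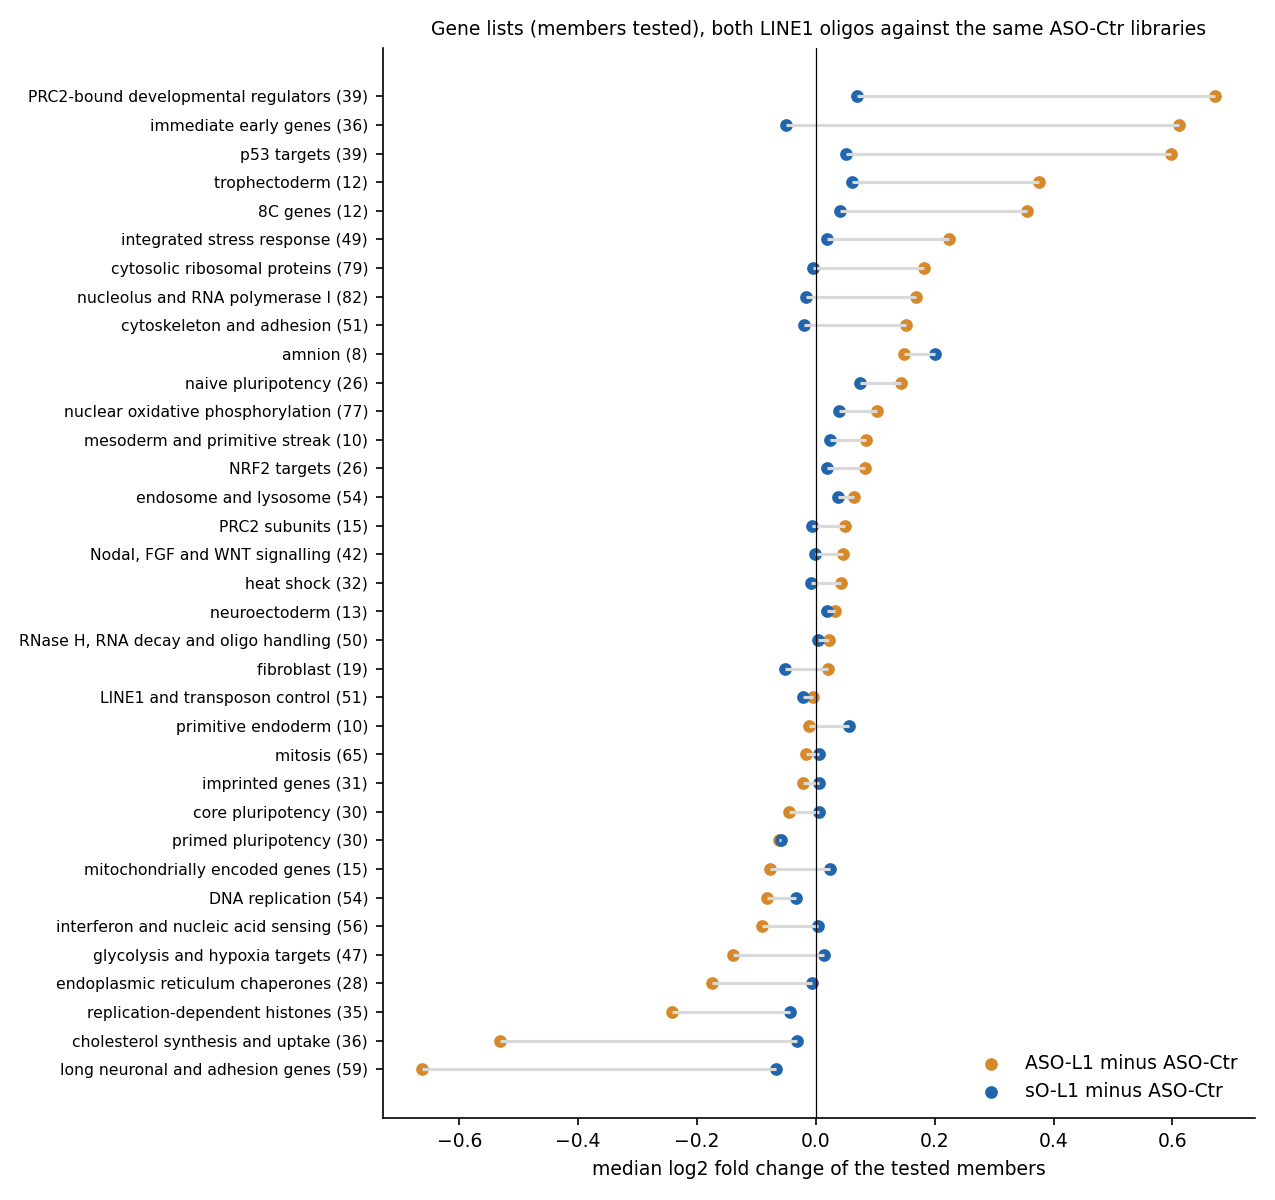
Median log2 fold change over the tested members of 35 gene lists (horizontal axis; number of members in parentheses) for sO-L1 (blue) and ASO-L1 (orange) against the same ASO-Ctr libraries. The sO-L1 medians lie between -0.07 and 0.20, where the largest belongs to 8 amnion genes, and the ASO-L1 medians reach -0.66 and 0.67.

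Markers of other cell types were not called either in the fit of 12 libraries, among 19 fibroblast, 13 neuroectoderm, 12 trophectoderm, 10 primitive endoderm, 8 amnion and 10 mesodermal or primitive streak genes tested. At an unadjusted p under 0.05 these lists held 6, 4, 0, 2, 2 and 3 genes, beside 7.14% of all tested genes. With the 8 libraries alone 4, 4, 0, 2, 1 and 1 were called, of 18, 13, 10, 10, 8 and 9, beside 3.83% of all tested genes. Every list except trophectoderm stood above both shares, but these counts pool the 2 directions. In the 8-library fit the fibroblast calls were 1 higher and 3 lower, and 13 of 19 fibroblast genes were negative in the main fit. The neuroectoderm calls were 3 higher and 1 lower, and the primitive endoderm calls 1 and 1. The amnion and mesodermal shares rest on 1 gene each, called higher. The summed amnion level was 33.3 to 44.3 CPM with ASO-Ctr and 38.6 to 48.7 CPM with sO-L1, and its part in the genes above was not tested. Mitochondrially encoded genes took 6.14 ± 0.361% of reads with sO-L1 and 6.05 ± 0.232% with ASO-Ctr (SD, n = 4; exact two-sided permutation test, p = 0.6). Cytosolic ribosomal protein genes took 4.65 ± 0.277% and 4.66 ± 0.294% (n = 4, exact permutation p = 0.971), and replication-dependent histone genes 0.0103 ± 0.00202% and 0.0102 ± 0.00148% (n = 4, exact permutation p = 1). Adjusted over these 3 classes each p is 1, and the smallest value this design allows is 0.0286.

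How far each call rests on particular libraries differed between genes. EDA, GRIP1, MMP16, MYO6, GAB1, SNAP23, TMEM116, RIMS2 and PPP2R3A were called in all 12 fits that left out 1 library or 1 replicate number. The others were lost in at least 1, and 16 of the 50 were called in at most 2 of the 12 (the adjusted p of SAMD12, called in 1, reached 0.806). Without the replicate block 17 of the 50 genes were called. All 50 were also called by DESeq2 and by limma on the authors' log2 table. Both reuse the same libraries. The limma fit had no replicate block, and its degrees of freedom do not count the earlier batch correction, so its p-values may be too small.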

How the data were processed

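Poly(A) RNA of 12 H9 samples was sequenced in 3 groups of 4. The authors deposited raw counts per gene with duplicates removed, per the labels, and a table of log2 normalized, batch-corrected values, per the labels. Per the submitters' processing notes, the tools include TopHat2 2.0.13, Trim Galore 0.4.0 and featureCounts (Subread 1.5.0), and the build is hg19. The strand setting and the annotation are not given in the sources used here. Duplicate removal lowers abundant genes more than rare ones.

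edgeR 4.0.16 in R 4.3.3 tested the counts of the 12 libraries (TMM, filterByExpr at a minimum count of 10, two-sided quasi-likelihood F-test), modelling group plus replicate number. Benjamini-Hochberg adjustment ran over all 17264 genes, called under 0.05. Residual degrees of freedom were 6, with a prior of 10.8. Intervals are 95% intervals from the quasi-likelihood standard error and cover model error only. Differences within a number use log2 CPM with a prior count of 2. The script was tested on simulated data. DESeq2 1.42.0, with the replicate block, and limma 3.58.1, on the batch-corrected table without a replicate block, were alternatives.

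Pairing was checked in 10549 genes averaging 200 counts or more: the 4 same-number pairs of sO-L1 and ASO-Ctr had r of 0.606 to 0.726, above the threshold of 0.1, against a median of -0.303 and a highest value of 0.560 for other pairs. Each gene was centred within its group first, so positive r in same-number pairs pushes the other pairs below 0 on average. Their median is therefore not an independent contrast. No 2 libraries were identical.

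The rule for naming took the 12 largest called rises and falls whose average log2 CPM was 1 or more and that had 1 direction in all 4 numbers, up to 6 each at an average of 6 or more, up to 3 called genes per list, and a set of fixed genes. The comparison, lists and rule were chosen with earlier results of these data known. Promoters are from RefSeq, and oligo sequences and repeats were not analysed here.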

Additional observations from a re-analysis of the deposited data

Results flagged for a closer look

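Of 130 groups of 4 libraries examined for named genes and class shares, 13 held a library set apart from the other 3 by a gap that fills most of the group's range (Dixon's test at 95%), where chance gives about 1 in 20. ASO-Ctr replicate 1 stood apart in 6 genes. It was low for CPLX2 at 3.21 CPM, MCCC2 at 112 CPM, GAB1 at 36.8 CPM and FIG4 at 23.6 CPM, and high for GMDS at 19.4 CPM. It was also high for CDKN1A at 10.6 CPM, as was sO-L1 replicate 1 at 11.3 CPM. sO-L1 replicate 1 was high for POU5F1 at 1282 CPM, ATF4 at 285 CPM and RNASEH1 at 45.1 CPM. Among replicate 2 libraries, ASO-Ctr was high for PPP2R3A at 24.0 CPM, and sO-L1 was high for MYO6 at 78.2 CPM and low for NANOG at 121 CPM. Of these genes CPLX2, MCCC2, GAB1, GMDS, FIG4, PPP2R3A and MYO6 were called.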

How the results depend on the processing

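The main count of 50 genes (12 higher, 38 lower) was 17 (2, 15) without the replicate block, 95 (28, 67) with DESeq2, 209 (83, 126) with limma, 141 (46, 95) without the filter and 640 (263, 377) with the 8 libraries alone. Scaling by RLE or upper quartile and a minimum count of 50 gave 48 to 51. Leaving out a replicate number or a library gave 10 to 241 genes, 1 to 90 higher and 8 to 151 lower: 241 without replicate 1, 10 without replicate 2, 10 without replicate 3 and 31 without replicate 4. It was 21 without ASO-Ctr replicate 2 or 3 or sO-L1 replicate 2 or 3, 25 without sO-L1 replicate 4, 29 without ASO-Ctr replicate 4, and 34 and 37 without replicate 1 of ASO-Ctr and sO-L1. Chosen after seeing the data, the 8 libraries alone gave 22 (3, 19) without the block, 286 (107, 179) with DESeq2 and 636, 455, 269 and 455 (higher 280, 208, 98 and 169; lower 356, 247, 171 and 286) without replicate 1, 2, 3 or 4. The cause of these differences was not tested. Of the 50 genes, all kept their sign in every fit that tested them, and 7 (EDA, GRIP1, MYO6, GAB1, SNAP23, TMEM116 and PPP2R3A) were called in all 26. ASO-L1 against sO-L1 gave 5747 to 9237 genes.

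Uncalled values near 0 changed sign: leaving out libraries, the log2 fold change ranged from -0.0057 to 0.064 for POU5F1 (below 0 without sO-L1 replicate 1), from -0.0030 to 0.044 for SUZ12, from -0.022 to 0.014 for NANOG and from -0.028 to 0.00245 for RNASEH1. With the 8 libraries alone NANOG was at 0.00475 and 0.00115 without replicate 2 or 3, and RNASEH1 at 0.00213 without replicate 4. CCR7, at the floor, ranged from -0.51 to 0.63. The ribosomal protein share differed by 0.00178 percentage points with mitochondrially encoded genes out of the denominator, and by -0.0680 to 0.0555 (0.0152) without 1 number. The histone share differed by -0.000241 to 0.000243. With signs flipped within replicate pairs, as a replicate block, the exact permutation p, which cannot go below 0.125 with 4 pairs, was 0.5, 1 and 1 for the mitochondrial (0.0901 points), ribosomal (-0.00254) and histone (4.78e-05) shares. Depth limits the genes near 3 reads per library.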
